A study of Mus musculus with 18 samples.

Results

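The genes described here are Cish and Socs1 to Socs7, the 8 genes of the suppressor of cytokine signalling (SOCS) family, taken by symbol from a count table of 24537 mouse genes. All 8 were present and all 8 passed the filter on low counts that kept 11651 genes for testing, so none was left out. They were followed in activated CD8+ T cells that differed in the guide RNA they had received and in the dose of LCA (lithocholic acid, which intestinal bacteria make from a primary bile acid).

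Naive CD8+ T cells were purified from mice, electroporated with Cas9 loaded with guides against Nur77 (the gene Nr4a1, a nuclear receptor induced by T cell receptor signalling; labelled KO) or with a scrambled guide (labelled WT), activated with antibodies to CD3 and CD28, and kept overnight with LCA or without it. There were 6 groups of 3 libraries: KO cells with 0 (control), 10 and 50 µM LCA, and WT cells with the same 3 doses. KO cells were an edited population, not a clone, and WT cells were unmutated cells that had gone through the same procedure. The labels do not say whether the 3 libraries of a group came from different animals or cultures, and the p-values below therefore measure the spread between libraries, which may be technical.

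Each library held 4113713 to 5945518 counts. The Nr4a1 transcript itself averaged 9.91 to 10.6 CPM (counts per 1000000 of the scaled library) over the KO groups and 9.60 to 13.6 CPM over the WT groups, and was not called between KO and WT averaged over doses (log2 difference -0.16 ± 0.19, adjusted p = 0.789 by edgeR's quasi-likelihood test), so the transcript count does not check the guide; edited transcripts can still be counted. Cd8a, Cd8b1, Cd3d, Cd3e and Cd3g, which mark CD8 T cells, summed to 2301 to 2893 CPM in KO libraries and 2358 to 3007 CPM in WT libraries, while Cd4 did not pass 1.29 CPM in any library. Other genes of CD4 T cells were detected, with Foxp3 at 9.16 to 18.9 CPM and Zbtb7b at 0.195 to 20.02 CPM over all libraries. Genes of other cells were low but not equal between the guides: 8 myeloid markers summed to 11.6 to 26.5 CPM in KO libraries, against 33.1 to 65.9 CPM in WT libraries. In controls, 8 red cell and platelet markers summed to 0.754 to 6.25 CPM in KO and 30.97 to 55.3 CPM in WT. They were also lower in KO at 50 µM (4.56 to 7.87 against 12.2 to 45.5 CPM) and overlapped at 10 µM (5.36 to 21.95 and 3.52 to 13.3 CPM). Summed CPM of 1477 olfactory, vomeronasal and trace amine receptor genes, which T cells are not known to use, measured each library's background, here without TMM scaling. It spanned 47.8 to 166 CPM in KO libraries with 50 µM LCA, 94.97 to 114.5 CPM in KO controls, 122 to 224 CPM in WT libraries with 50 µM LCA and 50.4 to 108 CPM in WT controls.

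SOCS proteins are feedback brakes. A cytokine receptor activates JAK kinases, these activate STAT transcription factors, STATs switch on genes of the family, and the proteins made then bind phosphorylated receptors or JAKs through an SH2 domain and, through a C-terminal SOCS box that recruits elongins and a cullin, mark their targets for degradation. In CD8 T cells, Cish is induced by T cell receptor and interleukin-2 signals and restrains T cell receptor signalling, and Socs1 limits the responses to interferon gamma and to cytokines of the common gamma chain.

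The sequence around the start is given for the 2 members that responded to LCA and for Socs3, another STAT-induced member. The STAT-type elements can thus be read beside the values. Promoter windows of 300 bases (250 before the RefSeq start site and 50 from it, build GRCm38.p6) were at hand for 4 of the 8 members (Cish, Socs1, Socs3 and Socs4), and 150 bases of each are printed on the gene's strand. Capitals mark matches to TTCNNNGAA, the palindromic STAT element, in Cish and Socs3, and to the letters GAAA and GAAA with any 2 bases between, an interferon-response-type element, in Socs1. The Cish stretch is chr9:107296539-107296688 on the plus strand, the Socs1 stretch chr16:10785537-10785686 on the minus strand, and the Socs3 stretch chr11:117969417-117969566 on the minus strand.
Cish: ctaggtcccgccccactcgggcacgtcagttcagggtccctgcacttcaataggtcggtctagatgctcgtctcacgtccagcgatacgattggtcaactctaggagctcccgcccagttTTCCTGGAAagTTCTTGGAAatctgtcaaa
Socs1: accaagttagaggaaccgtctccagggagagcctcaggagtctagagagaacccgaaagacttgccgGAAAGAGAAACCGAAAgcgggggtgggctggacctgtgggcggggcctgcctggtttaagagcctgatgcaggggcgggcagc
Socs3: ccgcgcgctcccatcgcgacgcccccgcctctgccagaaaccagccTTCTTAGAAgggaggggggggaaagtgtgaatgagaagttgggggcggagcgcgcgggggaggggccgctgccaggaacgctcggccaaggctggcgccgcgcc

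Cish held 2 STAT-type matches, TTCCTGGAA at bases 251 to 259 of its window and TTCTTGGAA at bases 262 to 270, so the first begins at the annotated start base itself (base 251). Of 32851 promoter windows of the same length, 8.30% held at least 1 TTCNNNGAA and 0.457% held 2 or more. Socs3 held 1 such match, TTCTTAGAA at bases 97 to 105. Socs1 held none, but held GAAAGAGAAA at bases 168 to 177 and GAAACCGAAA at bases 174 to 183, which overlap. That motif occurred on either strand in 3.44% of windows. The Socs4 window held no match to these motifs or to TTC and GAA with any 4 bases between (6.95% of windows). A match to these letters is not evidence that a factor binds there.

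Per kilobase of annotated exon, the family fell into a high and a low tier. Socs1 (chr16:10782240-10785536, minus strand) averaged 149 CPM per kb over the 18 libraries, Cish (chr9:107296026-107302784, plus strand) 45.1, Socs3 (chr11:117966079-117970047, minus strand) 16.3 and Socs2 (chr10:95385362-95417180, minus strand) 7.75 CPM per kb. No library of one of these genes overlapped any library of the next in that order. Socs6 (chr18:88665224-88927481, minus strand), Socs7 (chr11:97362551-97398542, plus strand), Socs5 (chr17:87107679-87137839, plus strand) and Socs4 (chr14:47276931-47296102, plus strand) averaged 1.755, 1.604, 1.45 and 1.37 CPM per kb, and their libraries overlapped one another. All coordinates are GRCm38, and the lengths count every annotated exon, so genes with long alternative exons read low on this scale.

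**Figure D1:**
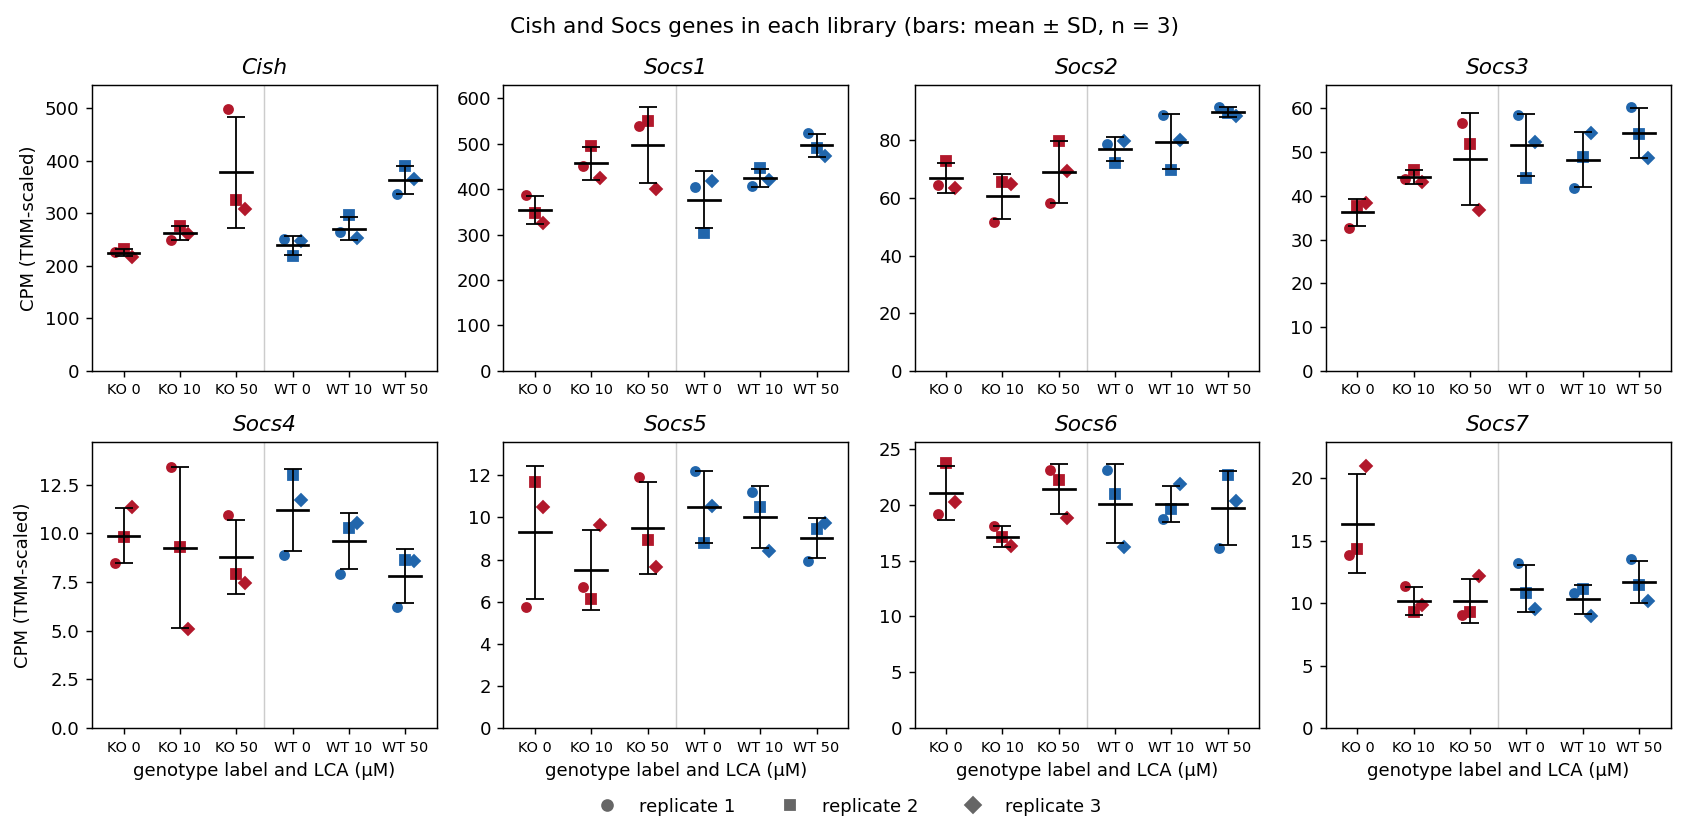
CPM (vertical axis, TMM-scaled, linear) of the 8 family members in each of the 18 libraries, 1 panel per gene, with the KO groups at 0, 10 and 50 µM LCA left of the WT groups; points are libraries, bars the mean and SD (n = 3). Cish at 50 µM lies above control in every library of both genotypes, from 308 to 499 CPM in KO cells and from 336 to 389 CPM in WT cells.

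Cish and Socs1 made up most of the family's counts. All 8 genes together summed to 739 ± 26.9, 868 ± 49.5 and 1041 ± 175 CPM in KO cells with 0, 10 and 50 µM LCA (SD, n = 3 each), and to 796.5 ± 90.65, 873 ± 34.6 and 1052 ± 25.9 CPM in WT cells with the same doses. Cish and Socs1 took between 75.4% and 86.0% of that sum in a library. The other 6 members summed to 160, 149 and 167 CPM on average in KO cells and to 181.5, 178 and 192.5 CPM in WT cells, so the higher family total at 50 µM lay almost wholly in Cish and Socs1.

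At 50 µM LCA, Cish rose in both genotypes. In KO libraries it stood at 499, 326 and 308 CPM with 50 µM LCA, against 227, 231 and 217 CPM in control. All 3 treated KO libraries were above all 3 controls, but 1 of them, replicate 1, was far above the other 2. In WT libraries it stood at 336, 389 and 364 CPM with 50 µM LCA, against 251, 218 and 248 CPM in control, again without overlap. The log2 fold change was 0.75 ± 0.13 in KO (SE; 1.68-fold, 95% interval 1.39 to 2.02; adjusted p = 0.00128 by edgeR's quasi-likelihood test with Benjamini-Hochberg adjustment over all genes) and 0.61 ± 0.13 in WT (1.52-fold, 1.26 to 1.83; adjusted p = 0.00491).

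The size of the Cish response in KO cells leaned on 1 library. Without KO LCA50 replicate 1, the log2 fold change in KO was 0.50 and still passed the test. The KO call was lost when only the compared groups entered the fit (0.74, adjusted p = 0.0746). KO LCA50 replicate 1 had the highest receptor background of its group, 166 CPM, and across the 18 libraries the Pearson correlation of log2 Cish with the log2 background was 0.47, against 0.02 to 0.29 for the other 7 members. With the background as a covariate, the WT log2 fold change was 0.43 and lost its call (adjusted p = 0.12). Every WT library with 50 µM LCA had more background (121.7 to 224.2 CPM) than every WT control (50.41 to 107.9 CPM). In WT cells this fit therefore cannot fully separate dose from background.

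Socs1, whose protein binds and inhibits JAK kinases, rose by a smaller factor. It stood at 540.1, 549 and 400 CPM in KO libraries with 50 µM LCA, against 388, 348 and 326 CPM in KO controls. In WT libraries it stood at 525, 490.1 and 474 CPM with 50 µM LCA, against 406, 304 and 419 CPM in control. In both genotypes the treated and control libraries did not overlap, though the lowest treated KO library lay just above the highest KO control. The log2 fold change was 0.49 ± 0.11 in KO (1.402-fold, 1.19 to 1.65; edgeR adjusted p = 0.0119) and 0.40 ± 0.11 in WT (1.32-fold, 1.12 to 1.56; adjusted p = 0.0327).

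Both Socs1 calls sat near the threshold within a genotype. In KO cells the call was lost without KO control replicate 2 (0.48, adjusted p = 0.0505), without KO control replicate 3 (0.43, 0.0665), without KO LCA50 replicate 1 (0.43, 0.0778) and without KO LCA50 replicate 2 (0.41, 0.0509). In WT cells it was lost without WT control replicate 2 (0.26, adjusted p = 0.121) and without any one of the 3 WT LCA50 libraries (0.36 to 0.43, adjusted p from 0.0597 to 0.101). Averaged over both genotypes, which doubles the libraries, Cish rose by a log2 fold change of 0.68 ± 0.09 (1.597-fold, edgeR adjusted p = 2.53e-05) and Socs1 by 0.44 ± 0.08 (1.36-fold, adjusted p = 0.000527). Both averaged calls held in all 26 other settings tried.

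**Figure D2:**
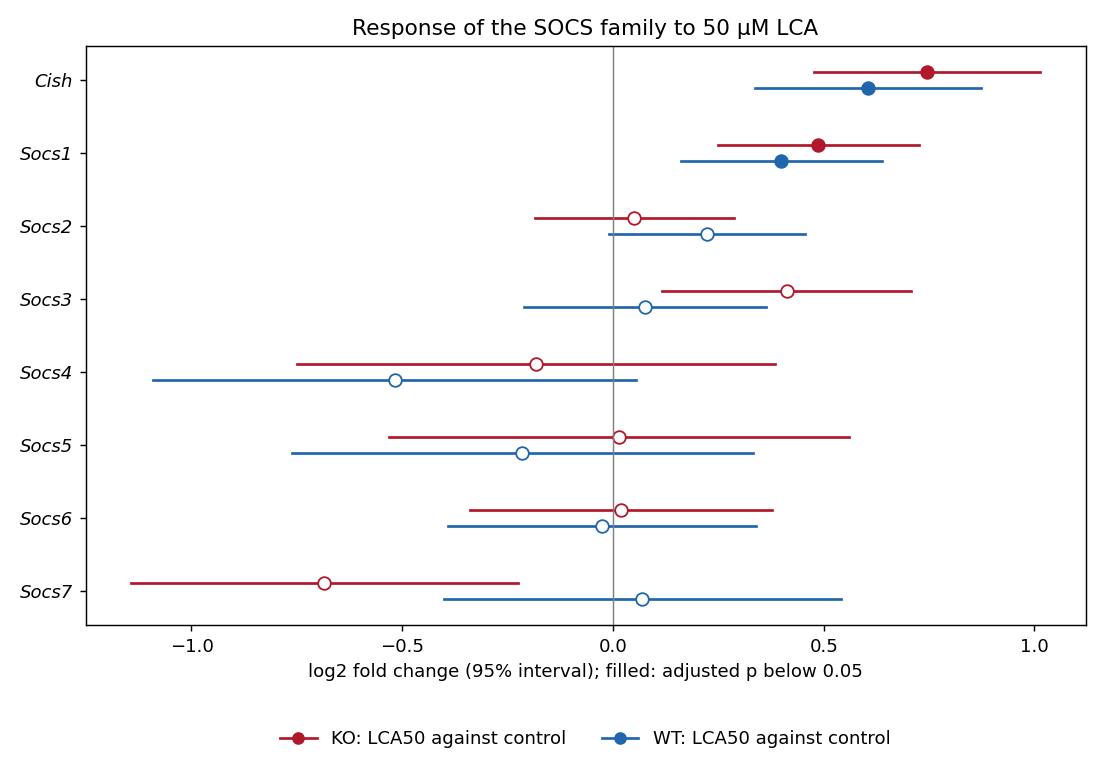
Log2 fold change of 50 µM LCA against control for the 8 members (horizontal axis), with KO drawn above WT for each gene; bars are 95% intervals and filled points passed edgeR's adjusted p of 0.05. Cish and Socs1 lie right of 0 in both genotypes with filled points, and the other 6 members have open points.

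So 2 of 8 members rose and none fell in each genotype. Over all 11651 genes tested, 2.93% were called higher (6.35% either way) in KO cells and 3.66% higher (8.58% either way) in WT cells. The members' median log2 fold change was 0.03 in KO, where all genes tested had 0.00, and 0.07 in WT, where all genes had 0.01, so the family did not move as a block. Averaged over genotypes, the same 2 of 8 members were called, both higher, where 7.86% of genes were called higher and 16.5% either way.

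Socs3, the brake on interleukin-6 and interleukin-12 receptors, showed a change that did not pass in KO cells. It stood at 56.7, 51.9 and 36.7 CPM in KO libraries with 50 µM LCA, against 32.6, 37.7 and 38.4 CPM in KO controls. One treated library lay within the controls and the other 2 above them. The log2 difference was 0.41 ± 0.15 in KO (edgeR adjusted p = 0.0864), and 0.58 (adjusted p = 0.0107) without the low library, KO LCA50 replicate 3. In WT cells Socs3 stood at 60.3, 54.2 and 48.8 CPM with 50 µM LCA, against 58.4, 44.1 and 52.4 CPM in control, which overlap (0.08 ± 0.14).

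Socs7 differed in the other direction in KO cells, also short of the threshold. Its protein binds insulin receptor substrate and other SH2 ligands. It stood at 9.06, 9.31 and 12.2 CPM in KO libraries with 50 µM LCA, against 13.8, 14.3 and 20.96 CPM in KO controls (log2 difference -0.68 ± 0.23, edgeR adjusted p = 0.0627). The treated KO libraries all lay below the controls, the highest of which, KO control replicate 3, had 124 Socs7 counts, against 70 and 76 in the other 2. Without that library the log2 difference was -0.46 (adjusted p = 0.382), and without KO LCA50 replicate 3 it was -0.84 (adjusted p = 0.0427). In WT cells Socs7 stood at 13.5, 11.45 and 10.2 CPM with 50 µM LCA, against 13.2, 10.8 and 9.51 CPM in control (0.07 ± 0.23). Without LCA, all KO controls lay above all WT controls (KO against WT 0.56 ± 0.22, edgeR adjusted p = 0.389). KO cells with 50 µM LCA averaged 10.2 ± 1.73 CPM, beside 11.2 ± 1.88 CPM in WT controls.

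Socs2, which restrains growth hormone receptor signalling, stood at 58.2, 79.8 and 69.3 CPM in KO libraries with 50 µM LCA, against 64.6, 72.8 and 63.4 CPM in KO controls (log2 difference 0.05 ± 0.12). In WT cells it stood at 91.6, 89.4 and 88.5 CPM with 50 µM LCA, against 78.7, 72.3 and 79.9 CPM in control. All treated WT libraries lay above the WT controls, but the log2 difference of 0.22 ± 0.11 did not pass (edgeR adjusted p = 0.246). Socs4 and Socs5, studied mostly as regulators of the epidermal growth factor receptor, and Socs6, which binds receptor tyrosine kinases such as Kit, had 27 to 126 counts a library. Socs4 averaged 8.78 ± 1.90 CPM in KO cells with 50 µM LCA and 9.88 ± 1.42 CPM in KO control, and 7.81 ± 1.38 and 11.2 ± 2.10 CPM in the same WT groups, where the libraries did not overlap (-0.52 ± 0.28, edgeR adjusted p = 0.281). Socs5 and Socs6 had log2 differences of -0.22 to 0.02 with standard errors of 0.18 to 0.27, so at this depth only changes well above those errors could have been detected.

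At 10 µM LCA no member passed in either genotype, where 0.326% of genes were called in KO cells and 0.386% in WT cells. At an unadjusted p under 0.05, 910 genes in KO and 909 in WT passed. Cish stood at 249, 276 and 261 CPM in KO libraries with 10 µM LCA, and at 263, 296 and 253 CPM in WT libraries, each above all 3 of its controls (log2 differences 0.22 ± 0.13 and 0.18 ± 0.13, edgeR adjusted p = 0.742 and 0.826). Socs1 stood at 450.5, 495.5 and 425 CPM in KO libraries, above all KO controls, and at 407, 447 and 419.5 CPM in WT libraries, which overlapped the WT controls.

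For Socs1 the log2 difference at 10 µM was 0.37 ± 0.11 in KO cells (edgeR adjusted p = 0.276), and averaged over genotypes it was 0.27 ± 0.08 (adjusted p = 0.107; 1.82% of genes called, 0 of 8 members). Socs7 in KO cells was 11.4, 9.29 and 9.84 CPM with 10 µM LCA, below all KO controls (-0.69 ± 0.23, adjusted p = 0.276). Socs3 lay above all KO controls there and Socs6 below them (0.29 ± 0.15 and -0.30 ± 0.18, edgeR adjusted p = 0.653 and 0.742). At 10 µM, 3 members thus lay wholly above and 2 wholly below control in KO, and 1 above and 0 below in WT. The share of all genes without overlap was not counted for any comparison. Cish means stood in dose order in both genotypes, at 225, 262 and 378 CPM in KO and 239, 271 and 363 CPM in WT for 0, 10 and 50 µM. Socs1 means did so as well, at 354, 457 and 496 CPM in KO and 376, 424.5 and 496 CPM in WT.

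Set directly against 10 µM, 50 µM LCA raised Cish in KO cells (log2 fold change 0.53 ± 0.13, edgeR adjusted p = 0.0454; 1 of 8 members, where 0.463% of genes were called higher and 1.38% either way), with a difference of 0.42 ± 0.13 in WT cells that did not pass (adjusted p = 0.094; 0 of 8 members, 2.27% of genes). The KO call held in only 9 of 26 other settings. It was lost in most fits without a single library, of any group, at adjusted p from 0.0502 to 0.208; without KO LCA50 replicate 1 the log2 difference was 0.28 (adjusted p = 0.105).

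Whether the guide changed the response to LCA was tested by the difference of the responses, KO minus WT. For Cish it was 0.14 ± 0.18 on the log2 scale at 50 µM (95% interval -0.24 to 0.52, edgeR adjusted p = 0.928), and for Socs1 0.09 ± 0.16. The largest in size among the members was Socs7, at -0.75 ± 0.32 (unadjusted p = 0.026, adjusted p = 0.793), and Socs4 (0.34 ± 0.40, adjusted p = 0.915) and Socs3 (0.34 ± 0.20, adjusted p = 0.816) came next. No member and 0% of all genes were called by edgeR at either dose. At 50 µM 729 genes passed an unadjusted p of 0.05 and DESeq2 called 1; at 10 µM these were 382 and 0. The upper end of the Cish interval, 0.52, is close to the WT response of 0.61, so the data do not show that the responses were alike.

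Apart from LCA, Socs2 differed between KO and WT cells. In the 9 KO libraries Socs2 ran from 51.6 to 79.8 CPM with a median of 64.7, and in the 9 WT libraries from 69.6 to 91.6 CPM with a median of 80.3. At 10 µM it stood at 51.6, 65.4 and 64.7 CPM in KO, against 88.7, 69.6 and 80.3 CPM in WT; KO libraries were all lower than WT libraries at 10 and 50 µM, and at 0 µM 1 KO library overlapped WT. Averaged over doses, Socs2 fell to 0.80-fold of its WT level in KO cells (log2 fold change -0.32 ± 0.07, 95% interval 0.728 to 0.879 in fold, edgeR adjusted p = 0.00156), a call that held in all 25 other settings. It was the 1 member of 8 called, where 1.79% of genes were called lower and 5.15% either way. By dose the log2 differences were -0.20, -0.39 and -0.37 at 0, 10 and 50 µM (adjusted p = 0.682, 0.14 and 0.0836), and no member was called at any single dose (0.627%, 0.661% and 1.94% of genes called; 1013, 978 and 1571 genes at an unadjusted p under 0.05).

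Socs3 was lower in KO on the same average but at the edge of the threshold (log2 difference -0.27 ± 0.08, edgeR adjusted p = 0.0504), and passed in 10 of 25 other settings. The gap was widest in controls, where it stood at 32.6, 37.7 and 38.4 CPM in KO, against 58.4, 44.1 and 52.4 CPM in WT, without overlap (-0.51 ± 0.14, adjusted p = 0.12). At 10 µM Socs3 stood at 43.8, 46.0 and 43.1 CPM in KO and at 41.8, 48.8 and 54.3 CPM in WT, which overlap. The myeloid markers, given above, were also lower in every KO library than in every WT library. Their part in the Socs2 and Socs3 differences was not tested.

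**Figure D3:**
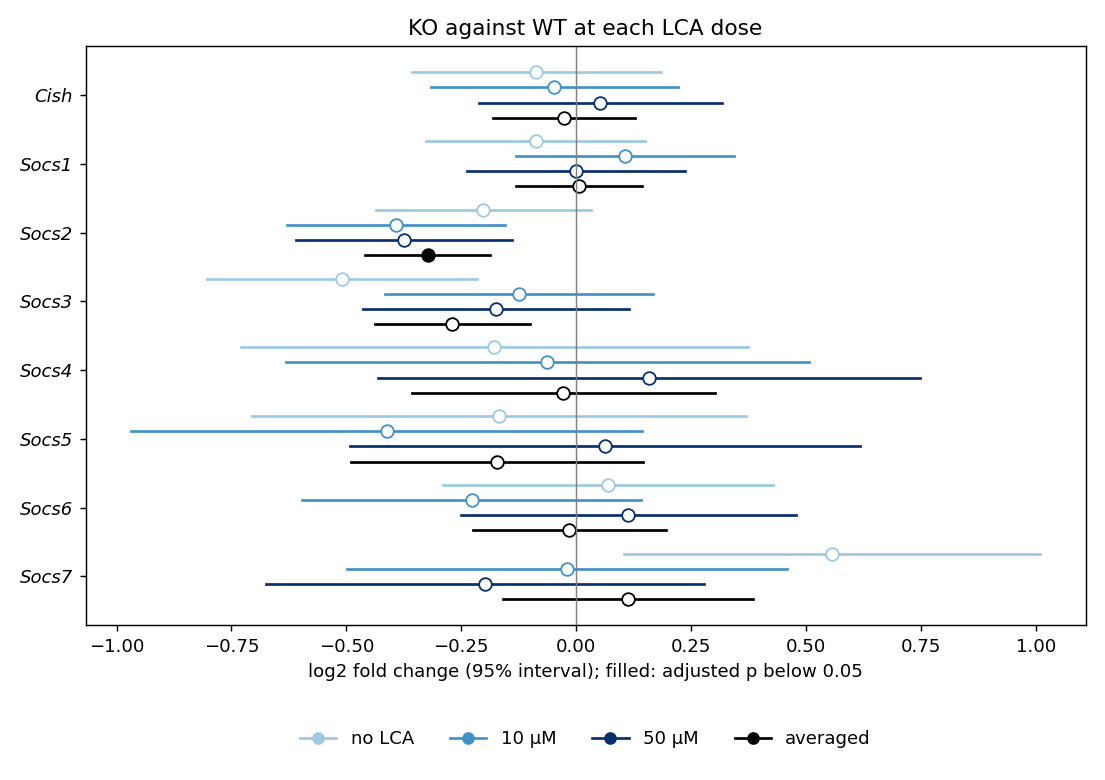
Log2 difference of KO against WT for the 8 members (horizontal axis) at 0, 10 and 50 µM LCA and averaged over the doses; bars are 95% intervals and filled points passed edgeR's adjusted p of 0.05. Only the averaged Socs2 point, at -0.32, is filled, and Socs2 lies left of 0 at every dose.

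The members' levels were compared with each other and with 9422 other genes by the Pearson correlation of log2 CPM over the 18 libraries, as a description, since the libraries share groups, depth and preparation. Cish and Socs1 had r = 0.79, and 0.51 when each group's mean was removed. Socs1 and Socs3 had r = 0.61, and 0.68 within groups, and Socs1 and Socs7 had r = -0.54. The genes most like Cish were Trib3, a pseudokinase (r = 0.945), Mthfd2, a mitochondrial folate enzyme (0.945), and Arid5a, an RNA-binding protein (0.931). Those most like Socs1 were Dusp5, a nuclear ERK phosphatase (0.931), Gadd45g, a stress sensor (0.898), and Cebpb, a transcription factor (0.896).

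For Cish these values were 0.906, 0.940 and 0.900 without KO LCA50 replicate 1. Socs2 was most like Mcoln2, a lysosomal channel (0.842), Aars2, the mitochondrial alanyl-tRNA synthetase (0.802), and C1qbp, a mitochondrial matrix protein (0.783). Socs3 was most like Ltb, which encodes lymphotoxin beta (0.851), Hnrnpab (0.829) and Lfng, a modifier of Notch (0.807). The 4 low members reached 0.735 to 0.805 with their nearest genes, Pex2 for Socs4, Fam46a for Socs5, Pbk for Socs6 and Stard10 for Socs7.

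Around the family, the pathway the SOCS proteins act on changed at 50 µM LCA in some of its steps. Of 19 listed ligands of JAK-coupled receptors, 13 were too low to test. Of the 6 tested, 4 rose in KO cells and 1 in WT cells, and none fell; 1 of the 4, Il9, passed the filter only through the group where it was high (11 to 31 counts in KO libraries with 50 µM LCA and 0 to 5 in every other library), so its rise there follows in part from the filter. Over all genes tested, 2.93% rose and 3.42% fell in KO cells, and 3.66% rose and 4.93% fell in WT cells. Osm, the cytokine oncostatin M and a STAT5 target, rose by a log2 fold change of 0.78 ± 0.14 in KO (edgeR adjusted p = 0.000636) and 0.54 ± 0.14 in WT (adjusted p = 0.0141). The WT call was lost without WT control replicate 1 or 3 or WT LCA50 replicate 1 or 2 (0.43 to 0.53, adjusted p from 0.0528 to 0.0964). Il9 (3.50 ± 0.81; 4.42 CPM with 50 µM LCA and 0.367 CPM in control), Ifng, the gene of interferon gamma (3.01 ± 0.74; 11.7 and 1.41 CPM), and Il10 (1.18 ± 0.37) also passed in KO. None of these 3 passed in WT, and the difference of the responses, KO minus WT, was not called for any gene. Between the guides at 50 µM, 3 of the 6 tested ligands were called higher in KO and none lower. Over all genes, 1.94% were called either way. Among the 3 were Il9 (3.10 ± 0.80, edgeR adjusted p = 0.0324) and Il10 (1.46 ± 0.39, adjusted p = 0.0364). This Il9 difference also follows in part from the filter, since only KO libraries with 50 µM LCA carried Il9 past it. Averaged over doses, 3 ligands were called higher in KO, where 5.15% of genes were called either way. Ifng lost its KO call without KO control replicate 3 (2.72, adjusted p = 0.117), and without KO control replicate 2 its log2 fold change was 4.60. The Il10 adjusted p of 0.0492 lay at the threshold and rose above it in most fits without a single library, of any group, at 0.0501 to 0.193.

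Of 20 tested receptors, 1 rose and 4 fell in KO cells, and none rose and 5 fell in WT cells. Ifngr1, the ligand-binding chain of the interferon gamma receptor, fell by 0.69 ± 0.09 on the log2 scale in KO (edgeR adjusted p = 2.5e-05) and by 0.78 ± 0.10 in WT (adjusted p = 3.97e-06). Il7r, the interleukin-7 receptor, fell by 0.50 ± 0.11 in KO and by 0.70 ± 0.12 in WT. Il21r fell by 0.28 ± 0.07 in both, and Ifngr2, the second interferon gamma receptor chain, rose in KO (0.41 ± 0.11, adjusted p = 0.0169; 0.24 ± 0.11 in WT, adjusted p = 0.202). The other receptor calls, singled out after their values were seen, were Il12rb2, which fell by 0.27 ± 0.07 in KO and by 0.25 ± 0.07 in WT, and Il10ra, which fell by 0.35 ± 0.10 in WT. Il12rb2 lost its KO call without KO control replicate 2 or 3 or KO LCA50 replicate 1 or 2 (adjusted p from 0.0544 to 0.131) and its WT call without WT control replicate 2 or 3 or WT LCA50 replicate 1 or 3 (0.0526 to 0.121). Il10ra lost its call without WT control replicate 3 or WT LCA50 replicate 3 (0.106 and 0.0898). The Ifngr1 and Il7r calls held in all 26 other settings. The Il21r call was lost in KO without KO control replicate 2 or 3 or KO LCA50 replicate 2 or 3 (adjusted p from 0.0571 to 0.0737), and in WT without WT control replicate 1 or WT LCA50 replicate 3 (0.0625 and 0.0823). The Ifngr2 call was lost without KO control replicate 1 or 3 (adjusted p = 0.0548 and 0.106).

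Downstream of the receptors, none of 4 JAK kinases was called within a genotype (Jak1 -0.14 ± 0.07 in KO and -0.08 ± 0.07 in WT, Jak3 -0.04 ± 0.08 and -0.01 ± 0.08). Jak2, singled out after its values were seen, had log2 differences of -0.30 ± 0.12 in KO and -0.21 ± 0.12 in WT, and averaged over genotypes it fell by 0.26 ± 0.08 (edgeR adjusted p = 0.0303). Of 7 STATs, 1 was called within each genotype, Stat4, which carries interleukin-12 signals: it fell by 0.42 ± 0.08 in KO and by 0.53 ± 0.08 in WT, in all 26 other settings too. Averaged over genotypes Stat2, a STAT of type I interferon signals singled out in the same way, fell as well (-0.19 ± 0.07, adjusted p = 0.0433). Both averaged calls were lost without any one of several libraries: Jak2 without WT control replicate 2, WT LCA50 replicate 1 or 2, KO control replicate 1 or 2 or KO LCA50 replicate 2 (adjusted p from 0.0537 to 0.135), and Stat2 without WT control replicate 1 or 2, WT LCA50 replicate 1 or 3, KO control replicate 2 or 3 or KO LCA50 replicate 1 or 2 (0.0567 to 0.125). At 10 µM, averaged over genotypes, Stat2 was instead higher (0.35 ± 0.07, edgeR adjusted p = 0.00184), where 1.82% of genes were called either way. From 10 to 50 µM the Stat2 log2 fold change was -0.57 ± 0.09 in KO and -0.52 ± 0.09 in WT (edgeR adjusted p = 0.00112 and 0.00143). At 50 µM none of 7 tested partners of the SOCS box ligase was called (Elob, which encodes elongin B, 0.22 ± 0.09 in KO and 0.04 ± 0.09 in WT). Of 15 other brakes on cytokine signals, 2 rose and 1 fell in each genotype. Dusp2, a nuclear phosphatase, rose by 0.91 ± 0.11 in KO (edgeR adjusted p = 8.7e-07) and by 0.37 ± 0.11 in WT (adjusted p = 0.0248), and Sh2b3, the adaptor LNK, by 0.62 ± 0.13 in KO and 0.47 ± 0.13 in WT.

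Among these brakes Ptpn6, the phosphatase SHP-1, fell in KO (-0.49 ± 0.12, edgeR adjusted p = 0.0169; -0.16 ± 0.12 in WT), and Pias1 fell in WT (-0.34 ± 0.10, adjusted p = 0.0344; -0.20 ± 0.10 in KO). In WT, Dusp2 lost its call without WT control replicate 2 or 3 or WT LCA50 replicate 2 or 3 (0.26 to 0.38, adjusted p from 0.0641 to 0.177), and Sh2b3 without WT control replicate 2 or WT LCA50 replicate 2 (adjusted p = 0.0517 and 0.169). Ptpn6 lost its KO call without KO control replicate 2 or 3 (adjusted p = 0.054 and 0.0736), and without KO LCA50 replicate 1 its log2 fold change was -0.29 and still passed. Pias1 lost its WT call without WT control replicate 1 or 2 or WT LCA50 replicate 2 or 3 (adjusted p from 0.0916 to 0.144).

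Genes known as STAT targets went different ways, and the lists do not separate genes a STAT raises from genes it lowers. Of 20 tested STAT5 targets, 7 rose and 1 fell in KO cells, and 6 rose and 1 fell in WT cells, with medians of 0.26 and 0.14 on the log2 scale. Lta, the gene of lymphotoxin alpha, rose by 1.42 ± 0.13 in KO and 1.12 ± 0.13 in WT, and Bcl2, which blocks apoptosis, by 0.39 ± 0.08 in KO and 0.49 ± 0.08 in WT, with both calls held in all 26 other settings; without KO LCA50 replicate 1 the Bcl2 change in KO was 0.25. Ccnd3, a cyclin, rose by 0.31 ± 0.07 in KO and by 0.21 ± 0.07 in WT (edgeR adjusted p = 0.00286 and 0.046), and the WT call was lost in most fits without a single library, of any group (adjusted p from 0.0538 to 0.244). Those that fell, singled out after their values were seen, were Bcl6 in KO (-1.63 ± 0.47) and Bcl2a1b in WT (-0.73 ± 0.23). Bcl6 lost its call without KO control replicate 2 or 3 or KO LCA50 replicate 1 or 3 (adjusted p from 0.0575 to 0.212), and Bcl2a1b without any one of the 6 WT libraries compared (0.0506 to 0.147). Of 23 tested interferon targets none rose, and 6 fell in KO cells and 9 in WT cells, with medians of -0.22 and -0.28. Iigp1, an interferon-induced GTPase, fell by 0.37 ± 0.08 in KO and by 0.59 ± 0.08 in WT, Irf1, a transcription factor, by 0.38 ± 0.07 and 0.43 ± 0.07, and Igtp, a GTPase, by 0.38 ± 0.07 and 0.40 ± 0.07, and all held in the 26 other settings. Gbp3, another GTPase, fell by 0.32 ± 0.09 in KO and by 0.53 ± 0.09 in WT, and lost its KO call without KO control replicate 2 or 3 or KO LCA50 replicate 1 or 3 (adjusted p from 0.0522 to 0.225).

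Of 10 tested STAT3 targets, 2 rose and 1 fell in KO cells, and none rose and 2 fell in WT cells. Pim1, a kinase, rose in KO (0.59 ± 0.17, edgeR adjusted p = 0.047), and without KO LCA50 replicate 1 the log2 difference was 0.30 (adjusted p = 0.275). The Pim1 call held in 6 of the 18 fits without a single library and was lost in the others, with libraries of every group among them (adjusted p from 0.0541 to 0.275). Batf, a transcription factor of T cell activation, fell in WT (-0.62 ± 0.15, adjusted p = 0.00523; -0.15 ± 0.14 in KO), and lost its call without WT LCA50 replicate 3 (-0.51, adjusted p = 0.0588). With only the compared groups in the fit, 9 of the KO calls named from these lists were lost (Ifng, Il10, Il21r, Ifngr2, Il12rb2, Ptpn6, Bcl6, Gbp3 and Pim1, adjusted p from 0.0512 to 0.263), and so was Bcl2a1b in WT (0.0584). With the background covariate, 10 WT calls were lost (Osm, Il21r, Il12rb2, Il10ra, Dusp2, Sh2b3, Pias1, Ccnd3, Bcl2a1b and Batf, adjusted p from 0.0558 to 0.337), with Osm at 0.32 and Il10ra at -0.23. So was the averaged 50 µM call of Stat2 (0.114). Some genes stand in more than 1 of these lists, Osm, Il10 and Il21r among them. Beside these changes the 5 CD8 T cell markers summed to 2301 to 2697 CPM in KO libraries with 50 µM LCA, against 2806 to 2893 CPM in KO controls, and to 2358 to 2608 CPM in WT libraries with 50 µM LCA, against 2931 to 3007 CPM in WT controls. The CD4 T cell genes Foxp3 and Zbtb7b had higher means with LCA. Foxp3 averaged 13.3 ± 1.34 CPM in KO cells with 50 µM LCA and 11.6 ± 1.96 CPM in KO control, and 16.7 ± 2.88 and 11.2 ± 2.04 CPM in the same WT groups (SD, n = 3 each). Zbtb7b averaged 10.95 ± 7.86 CPM in KO cells with 50 µM LCA and 4.17 ± 0.346 CPM in KO control, and 5.20 ± 1.60 and 2.97 ± 0.277 CPM in the same WT groups. Neither was called within a genotype. Averaged over genotypes, 2 of 3 tested CD4 T cell genes were called higher, where 7.86% of genes were. The 5 genes of that list summed to 22.6 to 41 CPM in KO libraries with 50 µM LCA and 15.5 to 19.3 CPM in KO controls. In the same WT groups the sums were 22.3 to 30.3 and 13.98 to 19.8 CPM. Of the NK and gamma delta T cell list, 4 of 6 genes were in the table and summed to 100.8 to 139.8 CPM in KO libraries with 50 µM LCA, against 78.1 to 90.9 CPM in KO controls, and to 133 to 156 CPM in WT libraries with 50 µM LCA, against 88.3 to 99.1 CPM in WT controls. Nearly all of that sum was Eomes, which activated CD8 T cells also express, while Ncr1, Klrb1c and Klra8 were at 0 to 10 counts a library. The 5 B cell markers summed to 4.75 to 5.72 CPM in KO libraries with 50 µM LCA, against 8.10 to 11.5 CPM in KO controls, and overlapped between the same WT groups. In bulk RNA, fewer cells of a type and less RNA per cell cannot be told apart, and the part of these marker differences in the results was not tested.

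**Figure D4:**
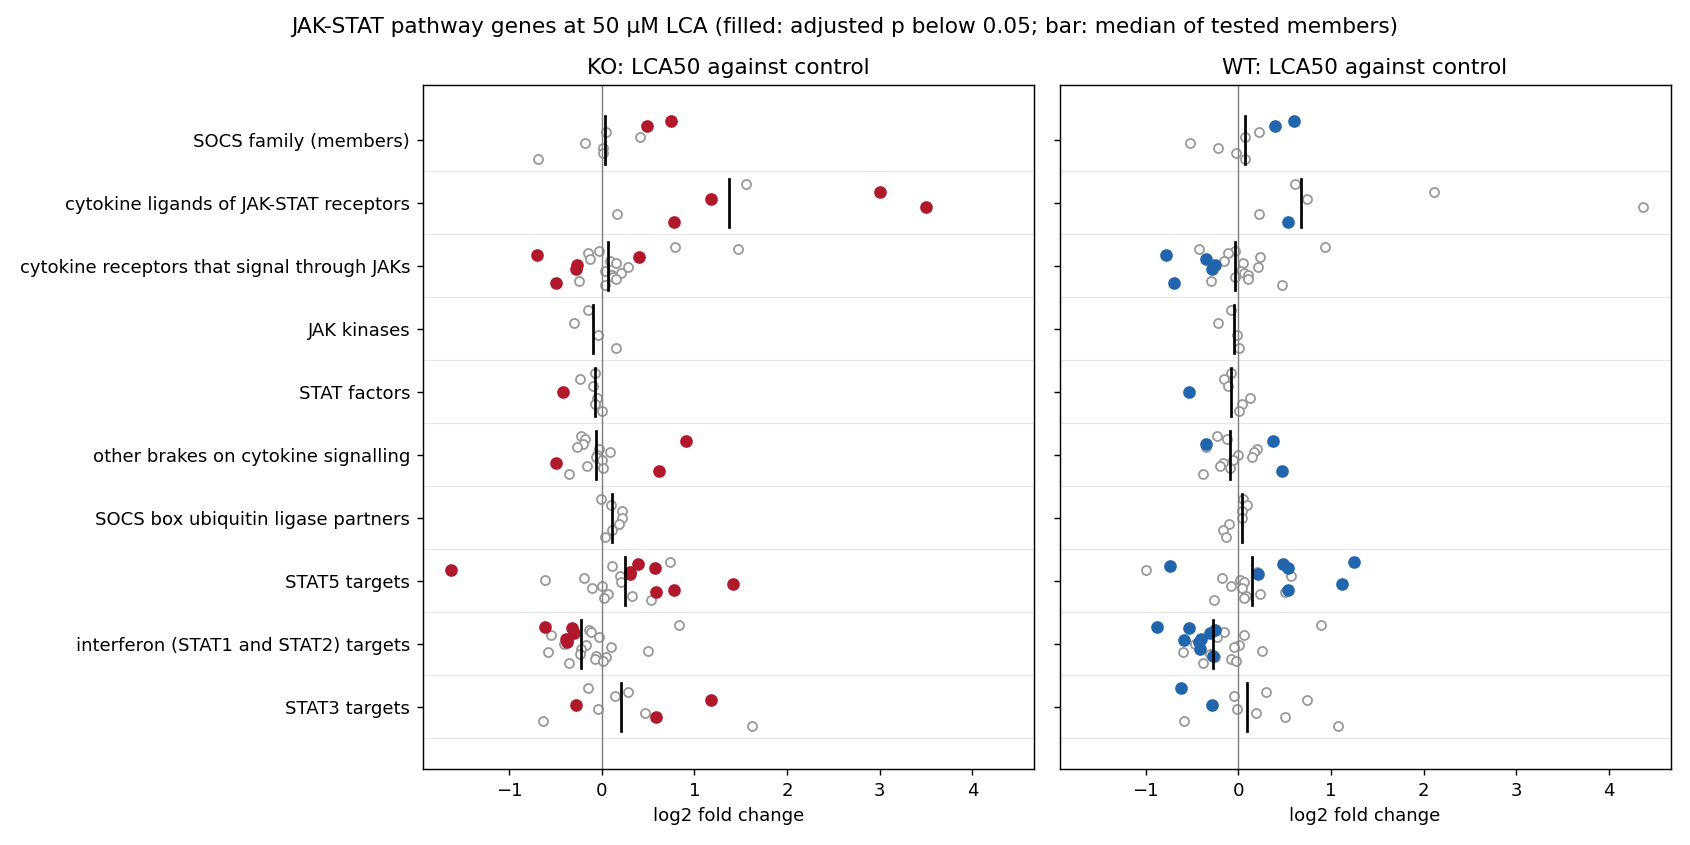
Log2 fold change of 50 µM LCA against control (horizontal axis) of each tested gene in the JAK-STAT pathway lists, with the KO panel left of the WT panel; points are genes, filled where edgeR's adjusted p was under 0.05, and the bar is the list's median. Interferon targets have medians of -0.22 in KO and -0.28 in WT, and STAT5 targets 0.26 in KO and 0.14 in WT.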

How the data were processed

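RNA of 18 libraries was measured by RNA-seq of low-input cDNA. The authors deposited raw counts per gene symbol. STAR, HOMER and DESeq2 and the builds GRCm38 and mm10 are named per the submitters' processing notes; the role of each tool and the use of strand are not given in the sources used here. From the deposited counts, edgeR 4.0.16 in R 4.3.3 kept 11651 genes (filterByExpr by group), scaled by TMM and fitted all 18 libraries with a mean for each of 6 groups, with robust quasi-likelihood F tests for 14 comparisons. P-values were adjusted by Benjamini-Hochberg over all genes of a comparison and called under 0.05. Values after ± are SE for log2 changes and SD (n = 3) for CPM. At 4113713 to 5945518 counts a library, the median SE of a log2 fold change at 50 µM was 0.153 in KO and 0.155 in WT. Other settings tried were DESeq2 1.42.0, its size factors, other filters (none, mean CPM of at least 5), a replicate block, background as a covariate, the compared groups alone and leaving out libraries. Exon lengths and coordinates come from the GRCm38 annotation and promoters from RefSeq. The script was checked on simulated counts. All members were named in the comparisons; up to 4 called genes per pathway list were named by smallest p, or, where none was called at 50 µM within a genotype, the 2 with the highest mean CPM, and 3 genes per member by correlation. The members and lists were chosen with earlier results of these data known.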

Additional observations from a re-analysis of the deposited data

How the results depend on the processing

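Of 112 member-by-comparison tests, 8 were called; 19 were called under at least 1 setting and 93 under none (lowest adjusted p 0.0614), and no called value changed sign. The number of members called moved as follows. With the background covariate it was 1 in WT LCA50 against control, 1 in KO LCA50 against WT LCA50 and 2 in KO against WT averaged. With only the compared groups it was 1 in KO LCA50 and in KO LCA10 against control, 2 in WT and 0 in KO LCA50 against LCA10, 1 in KO control against WT control and 2 in LCA10 averaged. With no filter it was 1 in KO LCA10 against control, in WT LCA50 against LCA10 and in KO control against WT control, and 2 in LCA10 averaged and in KO against WT averaged. With DESeq2 it was 1 in WT LCA50 against LCA10 and in LCA10 averaged. With DESeq2 size factors, or the mean CPM filter, it was 2 in KO against WT averaged. Without KO LCA50 replicate 1 and WT LCA50 replicate 3 together, a setting chosen after seeing the data, it was 1 in KO and in WT LCA50 against control, in WT LCA50 against LCA10, in KO control against WT control and in LCA10 averaged, 0 in KO LCA50 against LCA10 and 2 in KO against WT averaged. Leaving out 1 library at a time it ran from 1 to 4 in KO LCA50 and 1 to 2 in WT LCA50 against control, 0 to 1 in KO and in WT LCA50 against LCA10, in KO control against WT control, in KO LCA50 against WT LCA50 and in LCA10 averaged, and 1 to 2 in KO against WT averaged. In LCA50 averaged, Socs3 was called as well in 1 of these 18 fits (edgeR adjusted p = 0.0178). With the replicate number as a block the number of members called was 0 in KO LCA50 against LCA10 (Cish 0.52, adjusted p = 0.0553). The numbers do not pair the libraries: correlations of same-numbered deviations ran from -0.218 to 0.0881 over 45 pairs. Where the cause of a move is not the smaller number of libraries or genes tested, the cause was not tested. Over all genes, the calls behind the percentages also moved: 740 genes were called in KO LCA50 against control, and 351 (compared groups alone) to 1002 in other settings, and 1000 in WT, with 338 (background covariate) to 1320 in others. The lowest and highest counts in other settings were 6 and 123 for KO LCA10 (38 as reported), 4 and 135 for WT LCA10 (45), 25 and 325 for KO LCA50 against LCA10 (161), 67 and 535 for WT (264), 28 and 213, 43 and 165, and 46 and 369 for KO against WT at 0, 10 and 50 µM (73, 77 and 226), 109 and 380 for LCA10 averaged (212), and 0 and 6 for the difference of responses at 50 µM (0) and 0 and 3 at 10 µM (0).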
